A study of Mus musculus with 12 samples.

Results

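The genes described are Egr1, Egr2 and Egr3, which encode early growth response transcription factors. They were taken by symbol from the platform's probe table, whatever their values, and each had 1 probe, so 3 probes of 25697 and 3 of 16593 named genes are described. Expression was measured in BM-derived macrophages (BMDM) of Balb/c mice, grown from femur BM with M-CSF, kept overnight without it and treated for 1 h. The 4 groups of 3 arrays each were BMDM treated with LPS plus hBD3, with LPS, with hBD3, or left untreated. LPS is the outer membrane lipopolysaccharide of Gram-negative bacteria, sensed through TLR4, and hBD3 is human β-defensin 3, an antimicrobial peptide of epithelia. LPS was used at 50 ng/mL, while hBD3 is given as 5 mg/mL in the sample labels and as 5 μg/mL in the study's methods, and the labels give no dose for the combination. Macrophages of 3 separate mice were used per group, and whether arrays of equal replicate number share a mouse is not given in the sources used here.

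On each array 8958 to 9923 probes had a detection p under 0.01, BeadStudio's measure of signal over negative controls. The macrophage markers Adgre1, Itgam, Cd14, Fcgr1, Mrc1 and Lyz2 were detected in every group, and their summed signal was 30800 to 32900 with LPS plus hBD3, 32000 to 33700 with LPS, 29200 to 32700 with hBD3 and 30400 to 33800 in untreated BMDM. Lyz2 and Cd14 were the brightest of these (mean log2 signal 14.25 and 13.15 with LPS plus hBD3, then Adgre1 at 11.12), so the sum says little of the others. The lymphocyte and dendritic cell markers measured (5 of each) were detected on no array. Of 5 neutrophil and granulocyte markers only S100a8 was detected. Of 4 stromal and erythroid markers Dcn was detected on 10 arrays and Col1a1 on 6, while Col3a1 and Hba-a1 were not detected. LPS replicate 1 had the lowest mean correlation with the other arrays of its group, 0.967, against 0.979 to 0.992 for all other arrays.

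Egr proteins bind GC-rich DNA through C2H2 zinc fingers and are made within minutes of many stimuli. Their genes are classical targets of the ERK cascade, which phosphorylates ternary complex factors bound with serum response factor (SRF) at CArG boxes, so no new protein is needed. In the myeloid lineage Egr1 and Egr2 are known for favouring macrophage over granulocyte development, and the corepressors Nab1 and Nab2 restrain them. Egr1 is also a known regulator of inflammatory genes in macrophages, while a known role of Egr2 and Egr3 is in T cells, where they limit activation.

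Of the 3 genes, Egr2 had RefSeq promoter windows (GRCm38.p6) at 5 start sites, all on the plus strand of chromosome 10. CArG boxes lay in the 250 bases upstream of 4 of the 5 start sites. Since 3 of these windows overlap and hold the same box, the 2 windows with different boxes are shown, each ending at the base before its start site. Capitals mark the CArG box and, in the second, also both matches to TGACG, the core of the cAMP response element, on either strand.
Egr2, chr10:67537316-67537565: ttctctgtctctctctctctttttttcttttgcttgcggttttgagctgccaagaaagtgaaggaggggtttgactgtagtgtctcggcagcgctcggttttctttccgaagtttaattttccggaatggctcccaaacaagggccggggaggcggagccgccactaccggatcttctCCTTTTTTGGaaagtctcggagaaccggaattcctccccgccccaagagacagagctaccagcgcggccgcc
Egr2, chr10:67537619-67537868: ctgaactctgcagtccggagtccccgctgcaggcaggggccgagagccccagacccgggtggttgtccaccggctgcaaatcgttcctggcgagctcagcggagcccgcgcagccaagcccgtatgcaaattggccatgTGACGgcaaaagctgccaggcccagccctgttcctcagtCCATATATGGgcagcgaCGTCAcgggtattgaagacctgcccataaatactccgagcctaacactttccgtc
Counted from the start site, both boxes lay at -72 to -63. Of all 32851 windows in the RefSeq table, 1.47% held a CArG box in these 250 bases on either strand and 17.8% a TGACG core. The first window also held 3 matches to the Ets motif CCGGAA, 2 of which overlap each other (found in 12% of windows). The window not shown that lacked a CArG box held 2 overlapping matches to an NF-κB motif, between -117 and -107 (7.25% of windows). No window of Egr2 held the Egr motif GCGNGGGCG (4.7%). Of 13 other early genes listed here as SRF-driven that had a window, Vcl and Zfp36 held a CArG box, against 1.62% of all genes with a window. These matches describe the letters only, and binding was not measured.

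Egr1 was highest in the LPS group. Its log2 normalized signal was 7.78, 9.22 and 8.95 on LPS plus hBD3 replicates 1 to 3, 10.35, 11.84 and 11.40 with LPS, 6.61, 7.93 and 7.28 with hBD3, and 6.60, 7.31 and 6.64 in untreated BMDM. Every LPS array lay above all 9 others, and every LPS plus hBD3 array above every untreated one. Taken in pairs and in either direction, groups did not overlap for 7.89% of all probes between LPS plus hBD3 and LPS. The share was 7.57% between LPS and untreated BMDM and 7.16% between LPS plus hBD3 and untreated BMDM. How many probes had their LPS arrays above all 9 others was not counted. Before normalization the signals were 229, 349 and 434 with LPS plus hBD3, 1811, 3280 and 2854 with LPS, 98.4, 177 and 232 with hBD3, and 120, 133 and 96.8 in untreated BMDM. Its detection p was listed at 0 on all 12 arrays. Means were 8.65 ± 0.76 with LPS plus hBD3, 11.19 ± 0.76 with LPS, 7.27 ± 0.66 with hBD3 and 6.85 ± 0.40 in untreated BMDM (SD, n = 3 each). From high to low the order was therefore LPS, LPS plus hBD3, hBD3 and untreated, and of neighbours in it only LPS and LPS plus hBD3 did not overlap.

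Egr2 had the same order of means but was set mainly by the replicate number. Its log2 signal was 7.43, 9.73 and 9.40 on LPS plus hBD3 replicates 1 to 3, 8.13, 10.60 and 10.44 with LPS, 7.46, 9.45 and 9.25 with hBD3, and 7.56, 9.14 and 9.04 in untreated BMDM. All 4 replicate 1 arrays lay below all 8 others, even the LPS one. How many probes split in this way was not counted. In the limma contrast of replicate 1 with the others, given below, 5.26% of all probes were called lower. The deposited signals showed the same split, with 178, 492 and 586 with LPS plus hBD3, 357, 1368 and 1477 with LPS, 179, 497 and 884 with hBD3, and 239, 463 and 508 in untreated BMDM, and a detection p listed at 0 throughout. Group means were 8.85 ± 1.24 with LPS plus hBD3, 9.72 ± 1.38 with LPS, 8.72 ± 1.10 with hBD3 and 8.58 ± 0.89 in untreated BMDM (SD, n = 3 each), and no neighbours in this order differed beyond their spread. Among replicates 2 and 3 alone, both LPS arrays were above all others, a pattern not counted over all probes.

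Egr3 was not well above background. Its signal was 48.8 to 63.9 with LPS plus hBD3, 55.3 to 69.5 with LPS, 48.5 to 74.6 with hBD3 and 54.9 to 65.3 in untreated BMDM. The detection p was 0.01 or more on 11 of the arrays, and hBD3 replicate 3 alone was under it (0.00877). The range over the LPS arrays was 0.01 to 0.0414. With both sides at background no fold is given for Egr3, which does not show that the gene is silent.

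**Figure D1:**
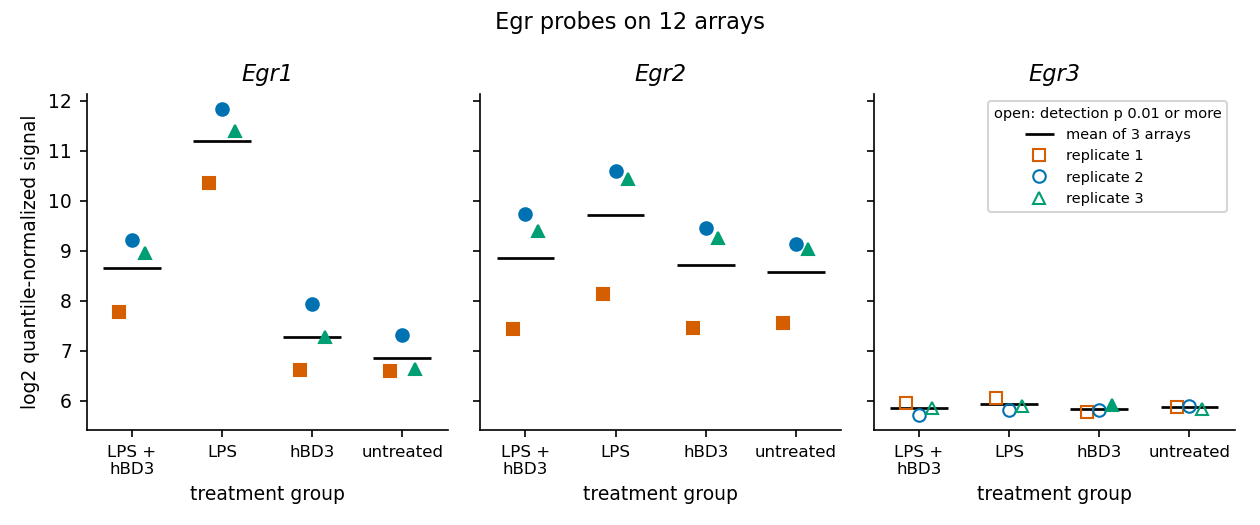
Log2 quantile-normalized signal of the Egr1, Egr2 and Egr3 probes (vertical axis) in BMDM treated for 1 h with LPS plus hBD3, LPS or hBD3, or left untreated (horizontal axis), with a marker per replicate number, filled where the detection p was under 0.01, and a line at the mean of 3 arrays. The Egr1 LPS arrays (10.35 to 11.84) lie above all others, the replicate 1 arrays of Egr2 (7.43 to 8.13) lie below all others, and Egr3 stays between 5.72 and 6.06.

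The comparison of LPS plus hBD3 with LPS asked whether hBD3 alters this early response. The log FC (log2 scale) of Egr1 was -2.54 (SE 0.47, 95% interval -3.58 to -1.51), or 0.172 times its LPS level, and only 1 of 25697 probes had a lower log FC. Fewer responding cells and less RNA per cell cannot be told apart in such bulk RNA. Between arrays of equal number Egr1 differed by -2.57, -2.62 and -2.44, nearly alike, although the levels of replicate 1 were lower. Over all probes limma gave an adjusted p of 0.246, where 14 probes were lower and 0 higher (0.0545% of all), with 558 lower and 392 higher at an unadjusted p under 0.05. With the replicate number as a block the adjusted p was 0.000119 (SE 0.17), with 34 probes lower (0.132%) and 8 higher (0.0311%), and arrays of equal number deviated together in these groups. The log FC of Egr2 was -0.87 (SE 0.82, 95% interval -2.68 to 0.94, adjusted p = 1, and 0.0582 with the block), and its differences by number were -0.70, -0.87 and -1.04. It was therefore lower in all 3 pairs, but the groups overlapped, and how many of all probes were lower in all 3 pairs was not counted. Without the replicate 1 arrays only replicates 2 and 3 of each group remained. Both genes then fell, with a log FC of -2.53 for Egr1 (SE 0.25, adjusted p = 0.00195) and of -0.95 for Egr2 (SE 0.13, adjusted p = 0.0153). In that fit 51 probes were lower (0.198%) and 4 higher (0.0156%) by limma. The arrays left out were those on which Egr2 read low, so its call there is no separate support.

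In LPS against untreated BMDM Egr1 rose by a log FC of 4.34 (SE 0.47, 20.3-fold, adjusted p = 0.00269 by limma), and 1 of 25697 probes had a higher one. Of all probes 27 were higher (0.105%) and 0 lower, and 504 were higher and 325 lower at an unadjusted p under 0.05. By replicate number the difference was 3.75, 4.53 and 4.76. In a fit to the LPS and untreated arrays alone the adjusted p was 0.058, and it was 0.000596 to 0.0253 without any single array. The log FC of Egr2 was 1.14 (SE 0.82, 2.21-fold, adjusted p = 1), the 45th highest. With the replicate block Egr2 rose (SE 0.14, adjusted p = 0.00588), where 71 probes were higher (0.276%) and 1 lower (0.00389%). Between these groups the deviations of equal-numbered arrays correlated least, by 0.0799 at replicate 2. The LPS array of Egr2 was above its untreated array at each number, by 0.58, 1.46 and 1.40, a pattern not counted over all probes. Without the replicate 1 arrays Egr2 rose by 1.43 (SE 0.13, adjusted p = 0.000452) and Egr1 by 4.64 (SE 0.25, adjusted p = 1.74e-05), where 80 probes were higher (0.311%) and 1 lower (0.00389%). Egr2 read low on the arrays left out, so its call there is no separate support either.

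With LPS plus hBD3 Egr1 lay above its untreated level on every array. Its log FC against untreated BMDM was 1.80 (SE 0.47, 3.49-fold), the 4th highest, and its differences by number were 1.19, 1.91 and 2.31. The adjusted p was 1 by limma, which called 0 probes (0%), with 349 higher and 287 lower at an unadjusted p under 0.05. With the replicate block it was 0.0137, and 2 probes were higher (0.00778%). The log FC of Egr2 was 0.28 (SE 0.82, adjusted p = 1), with differences of -0.13, 0.59 and 0.36, and its sign turned under median scaling (-0.02). On the log2 scale the Egr1 response with LPS plus hBD3 was 41.5% of that with LPS, and 31.6%, 42.1% and 48.6% between arrays of equal number. On the linear scale it was 13.1%. For Egr2 the share over group means was 24.1%, but between arrays of equal number it was -22%, 40.5% and 26%, so no share is settled.

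With hBD3 alone neither gene passed the test. The log FC of Egr1 was 0.42 (SE 0.47, 95% interval -0.61 to 1.45, adjusted p = 1), with differences of 0.01, 0.62 and 0.64, and that of Egr2 was 0.14 (SE 0.82, 95% interval -1.67 to 1.95, adjusted p = 1), with -0.10, 0.31 and 0.21. These intervals still allow a rise of up to 1.45 for Egr1. By limma 0 probes were called here, also with the block (0%), with 254 higher and 359 lower at an unadjusted p under 0.05. Set against hBD3 alone, Egr1 with LPS plus hBD3 was higher by 1.38 (SE 0.47, adjusted p = 1, and 0.0589 with the block), and higher at each number by 1.17, 1.29 and 1.68. For Egr2 it was 0.14 (SE 0.82, adjusted p = 1), and its sign turned under median scaling (-0.18). In this comparison limma called 0 probes with and without the block (0%), and 574 were higher and 397 lower at an unadjusted p under 0.05.

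The interaction term asked whether the effect of hBD3 differed with and without LPS. For Egr1 the effect with LPS minus that without LPS was -2.96 (SE 0.66), the lowest of all probes, and it was -2.58, -3.24 and -3.08 by replicate number. Its adjusted p was 1 by limma, which called 0 probes (0%), with 365 lower and 292 higher at an unadjusted p under 0.05. With the replicate block the adjusted p was 0.00156 (20 probes lower, 0.0778%), and without the replicate 1 arrays 0.00949 (26 lower, 0.101%). For Egr2 the difference was -1.01 (SE 1.16, adjusted p = 1, and 0.311 with the block), with -0.60, -1.17 and -1.25 by number. These comparisons share arrays, so they are not independent of each other.

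**Figure D2:**
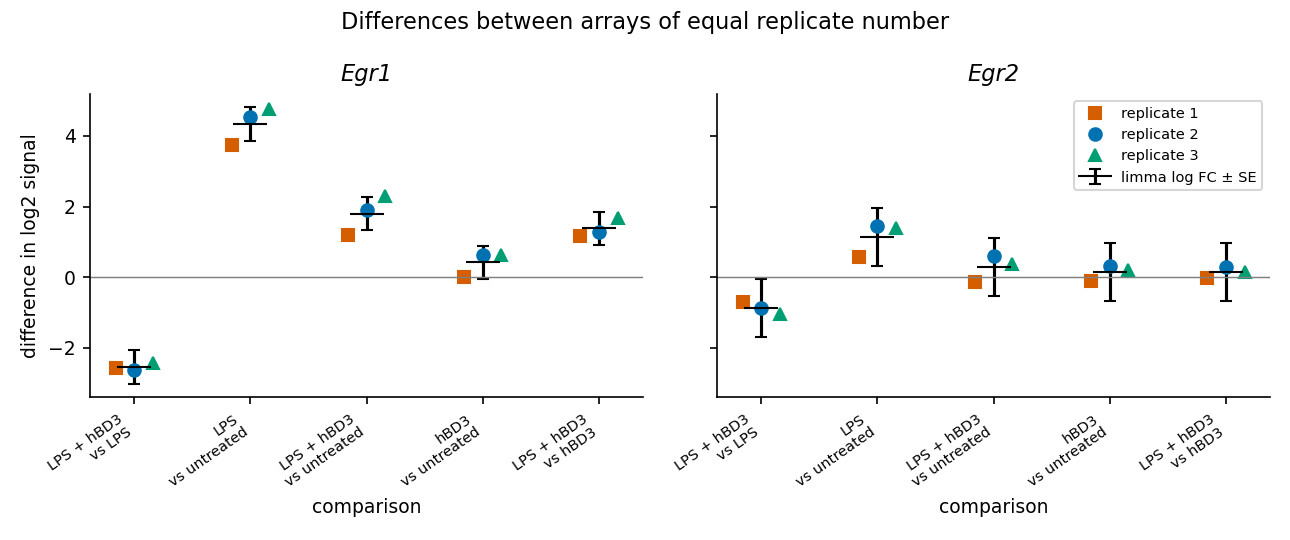
Difference in log2 signal between arrays of equal replicate number (points, vertical axis) for Egr1 and Egr2 in each comparison (horizontal axis), with limma's log FC ± SE as a line and bars. For LPS plus hBD3 against LPS the Egr1 points lie together at -2.62 to -2.44 and the Egr2 points at -1.04 to -0.70, inside the wide bars of the fit without a replicate term.

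Egr2 was the probe that read lowest on the replicate 1 arrays relative to the others. In a limma fit with the 4 groups and the replicate number, added after the data were seen, Egr2 was lower on the replicate 1 arrays, with a log2 difference of -1.98 from the mean of replicates 2 and 3 (SE 0.11, adjusted p = 2.17e-06), the lowest of 25697 probes. The next lowest was Actn4 at -1.70. Within the groups the Egr2 difference was -2.13 with LPS plus hBD3, -2.38 with LPS, -1.89 with hBD3 and -1.53 in untreated BMDM. Replicates 2 and 3 differed by only 0.20 (SE 0.12, adjusted p = 0.631). The residual SD of Egr2 was 1.17 with the groups alone, above that of 99.9% of probes, and 0.22 once the replicate number entered. Egr1 was also lower on the replicate 1 arrays, with a difference of -0.99 (SE 0.13, adjusted p = 0.000616), with -1.30, -1.27, -0.99 and -0.38 in the same order of groups, while Egr3 differed by 0.07 (SE 0.06, adjusted p = 0.58). In this contrast 1352 probes were lower (5.26%) and 1689 higher (6.57%), so a call in it is common. What the replicate number stands for is not given in the sources used here, and its part in the results was not tested beyond these fits.

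**Figure D3:**
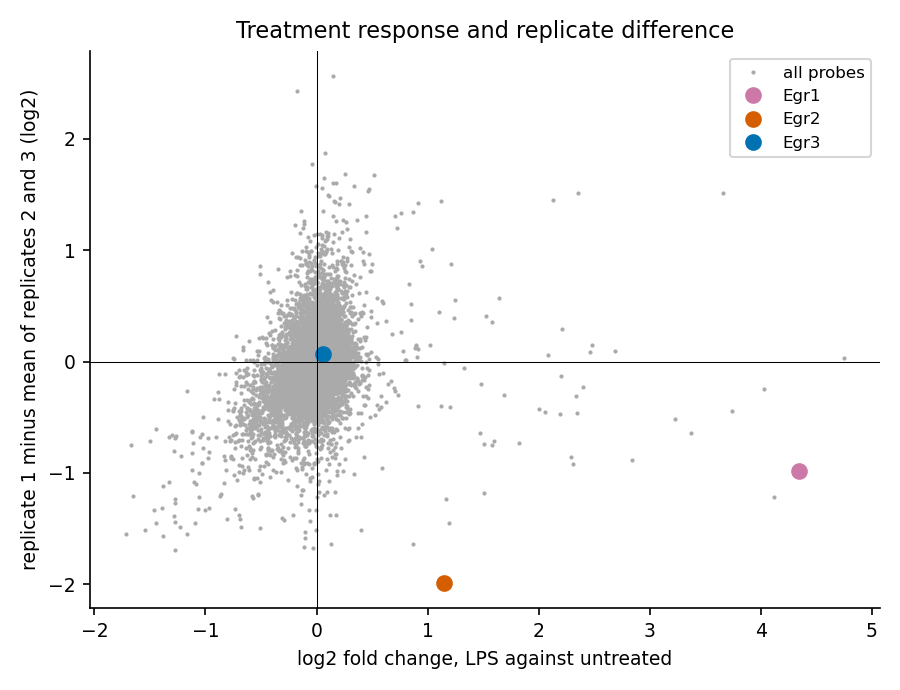
Log FC of LPS against untreated BMDM (horizontal axis) and log2 difference between replicate 1 and the mean of replicates 2 and 3 (vertical axis) for all 25697 probes, with Egr1, Egr2 and Egr3 marked. Egr2 lies lowest at -1.98 with a log FC of 1.14, Egr1 lies far right at 4.34 and -0.99, and Egr3 lies near the origin.

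Over the 12 arrays the genes most like Egr1 and those most like Egr2 were different. Among 7097 other genes detected on at least 3 arrays, the log2 signal of Egr1 correlated best with Socs3 (Pearson r = 0.984), an inhibitor of cytokine signaling, Tnf (0.982), Nfkbia (0.978), an inhibitor of NF-κB, Nfkbiz (0.977) and Tnfaip3 (0.974), which encodes A20. Egr2 correlated best with Plk2 (0.981), an early response kinase, Slc25a25 (0.971), a mitochondrial carrier, Coq10b (0.962), Pdgfb (0.953), a growth factor subunit, and Asns (0.952), asparagine synthetase. Since Egr1 differed mainly with LPS and Egr2 mainly with the replicate number, the genes chosen for likeness had to share this, and their values are given with no test. The log FC with LPS was 2.00 for Nfkbia to 4.12 for Tnf among the 5 genes like Egr1, and 0.16 for Coq10b to 0.87 for Plk2 among the 5 like Egr2. The log2 difference of the replicate 1 arrays from the others was -1.64 for Plk2 and -1.52 for Pdgfb, the 6th and 12th lowest probes, and -1.01 to -0.45 for the other 3 genes like Egr2, against -1.21 to -0.42 for those like Egr1. Egr1 and Egr2 correlated at 0.649 with each other, and at 0.919 once group means were removed. The points share arrays, groups and one normalization, so these values are a description.

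Around the Egr genes, no measured gene for a factor that partners, restrains or drives them passed in the fit of 4 group means to all arrays. Of Egr4, Nab1, Nab2, Sp1 and Wt1 none passed by limma in any comparison. Nab1 was detected on all arrays and Nab2 on 4, and their log FC with LPS was 0.16 (SE 0.16) and 0.17 (SE 0.15). Of SRF and its cofactors 7 of 9 were measured and none passed, with Srf itself at 8.33 with LPS plus hBD3, 8.36 with LPS, 8.18 with hBD3 and 8.20 in untreated BMDM. The largest log FC with LPS was -0.37 (SE 0.28) for Mrtfa, an actin-regulated SRF coactivator, and -0.35 (SE 0.22) for the acetyltransferase gene Ep300. The list's median log FC was 0.05 between LPS plus hBD3 and LPS, and -0.12 with LPS, against medians over all probes of -0.005 and 0.008. Of the ERK cascade 6 of 13 were measured and none passed. Map3k8, the kinase that links TLR4 to ERK, had the largest log FC, -1.01 between LPS plus hBD3 and LPS (SE 0.20, adjusted p = 0.353, and 0.00225 with the block) and 1.20 with LPS (SE 0.20, adjusted p = 0.074, but 0.000313 with the block, 0.0276 without LPS replicate 1 and 0.0296 without untreated replicate 2). Over these 2 comparisons it passed in 11 of the alternative fits run, those named included. The next were Rps6ka5, a kinase downstream of ERK, at -0.27 (SE 0.50) between LPS plus hBD3 and LPS, and Map2k2, at -0.14 (SE 0.21) with LPS.

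Some other early genes listed here as SRF-driven moved in the same directions as Egr1, and whether SRF drove them in these cells was not measured. Of 14 measured, 4 rose with LPS, where 0.105% of all probes did: Zfp36, an mRNA decay factor, by 2.84, Dusp1, a MAPK phosphatase, by 2.68, Ier3 by 2.48 and the AP-1 subunit Fos by 2.40, all by less than Egr1. The calls of Zfp36 and Fos were lost without untreated replicate 1 (adjusted p = 0.0685 and 0.0576), without untreated replicate 3 (0.0949 and 0.0758) or without LPS replicate 2 (0.132 and 0.0534), and that of Zfp36 without LPS replicate 3 (0.118). Over all alternatives run, these included, Zfp36 lost its call in 7 and Fos in 4. With LPS the median over the 14 genes was 0.16, against 0.008 over all probes. The list was chosen with earlier results of these data known. Each gene entered by its brightest probe, whereas all probes include many that were not detected. The counts and medians of the list are therefore a description. Junb, at 1.47 (adjusted p = 0.179), did not pass by limma without the block but passed with it (1.08e-05). Over this comparison and LPS plus hBD3 against LPS, Junb passed in 5 of the alternative fits run, the blocked ones included. Between LPS plus hBD3 and LPS, Ier3 fell (-1.59, SE 0.16, adjusted p = 0.00527), where 0.0545% of all probes did, and the median was -0.09, against -0.005 over all probes. A fit of these groups only called no probe, so the Ier3 call was lost there. With the block Dusp1 (-1.55), Zfp36 (-1.89) and the AP-1 subunit Junb (-1.05) also fell, and Dusp1 passed without untreated replicate 3 too (adjusted p = 0.0185). Over all alternatives run, the block included, Dusp1 passed for this fall in 5 and Zfp36 in 2. Fos, at -1.43, did not pass (adjusted p = 0.465, and 0.147 with the block). Atf3, Klf4, Mcl1 and Vcl, detected on all arrays, had a log FC of -0.05, -0.02, 0.12 and -0.02 with LPS, and Ier2, Btg2, Ccn1 and Nr4a1 were detected on none.

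Of 20 reported Egr target genes 17 were measured. With LPS 2 rose, Tnf by 4.12 and Ppp1r15a, which directs a phosphatase to eIF2α, by 1.14, against 0.105% of all probes, and the median was 0.18, against 0.008 over all probes. The Tnf call was lost without untreated replicate 1 (adjusted p = 0.0879) or 3 (0.107) and without LPS replicate 2 (0.126) or 3 (0.0854), and in 6 of all alternatives run, these included. That of Ppp1r15a was lost under median scaling (1.25, adjusted p = 0.481). The log FC was 1.25 for Id3, which encodes a helix-loop-helix inhibitor (adjusted p = 0.594, and 0.0187 with the block), and 1.02 for the cell cycle inhibitor Cdkn1a (adjusted p = 0.0994, and 0.0453 with the block), so that 4 rose with the block, while F3, Fasl and Fgf2 were detected on no array. Between LPS plus hBD3 and LPS Ppp1r15a fell (-1.09, SE 0.08, adjusted p = 0.000657, but -1.48 with 0.183 under median scaling), and so did Tnf with the block (-2.29, adjusted p = 0.898 without it and 0.00425 with it). The call of this Ppp1r15a fall was also lost in a fit of these groups only. The median of the 17 was -0.15, against -0.005 over all probes. This list too was chosen with earlier results known, so its counts and medians are a description. Of the myeloid lineage genes linked to Egr factors 9 of 11 were measured and none passed in any comparison, with Cebpa, which drives granulocyte development, at -0.73 (SE 0.64) with LPS and 0.51 (SE 0.64) between LPS plus hBD3 and LPS, and Cebpb at 0.46 (SE 0.20) and -0.33 (SE 0.20). Of the housekeeping genes, Gapdh had a log FC of 0.05 (SE 0.16) between LPS plus hBD3 and LPS and of -0.05 (SE 0.16) with LPS, and Actb of 0.06 (SE 0.15) and -0.04 (SE 0.15).

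**Figure D4:**
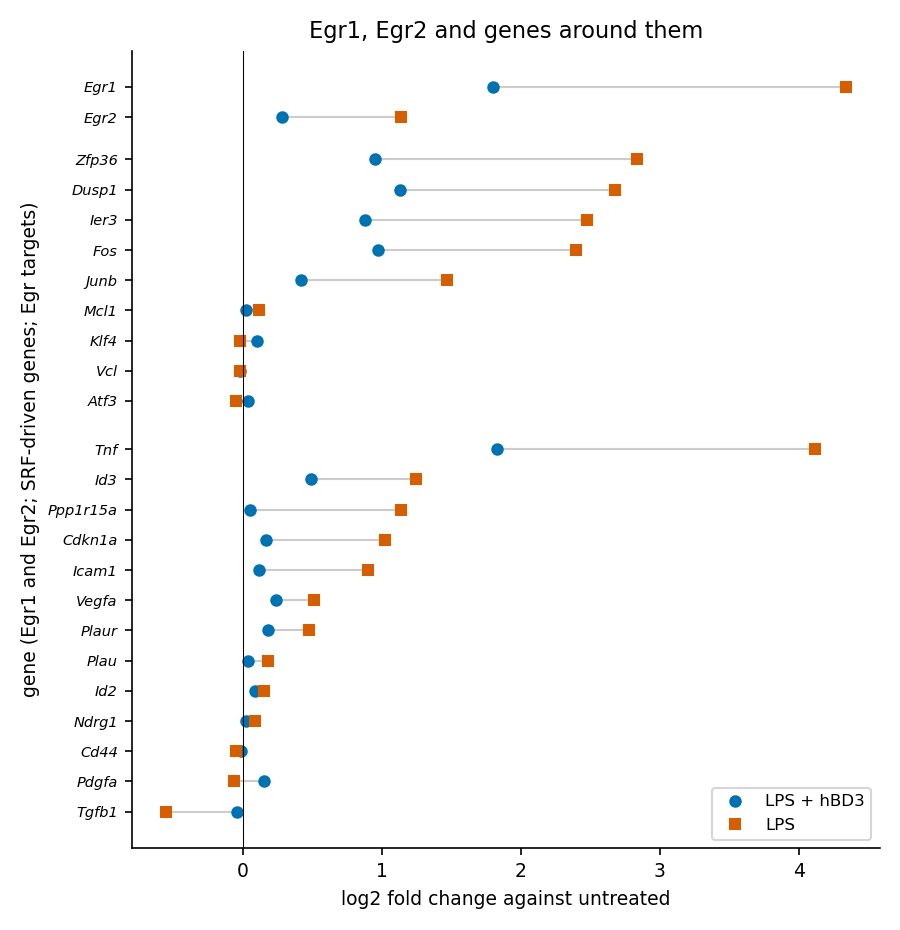
Log FC against untreated BMDM (horizontal axis) with LPS plus hBD3 (circles) and with LPS (squares) for Egr1 and Egr2, for the other early genes listed as SRF-driven and for the reported Egr target genes that were detected on all 12 arrays (vertical axis). Egr1 (1.80 and 4.34) and Tnf (1.83 and 4.12) lie farthest right, and both sets of values share the same untreated arrays.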

How the data were processed

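RNA of 12 BMDM cultures was hybridised to Illumina MouseRef-8 v2.0 BeadChips. The authors deposited BeadStudio intensity values that were not normalized, with a detection p-value per probe. They also deposited a value table of normalized intensity on a linear scale, whose columns share nearly the same distribution (sorted columns differed by at most 0.765), and which served as an alternative. How probe intensities were background corrected before export is not given in the sources used here.

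Intensities were quantile normalized between arrays on the linear scale and log2 transformed, with no pseudocount since the lowest was 27.98. A fit of 4 group means by limma 3.58.1 (R 4.3.3) was tested over all 25697 probes, Benjamini-Hochberg adjusted, at a threshold of 0.05, two-sided. A log FC is the difference of group means on the log2 scale, its interval is the 95% interval of the moderated test, and detection means a detection p under 0.01. Depth does not apply to arrays, and the 3 arrays per group limit the precision. The probe table, from the platform's annotation, gave 1 symbol for 23978 probes and none for 1719, and 81 of 100 list genes matched, older symbols being updated through RefSeq. The list genes without a match were not analysed here.

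The Egr probes and all gene lists were chosen with earlier results of these data known, so counts and medians over a list are a description. Each list gene was taken by its brightest probe. List genes were named where they passed a test or had one of the 2 largest changes of their list, and Nab1, Nab2, Srf, Junb, Atf3, Klf4, Mcl1, Vcl and the undetected genes were named after their values were seen. The 5 genes most like a member were taken by Pearson correlation over 12 arrays among probes detected on at least 3. Promoter windows came from the RefSeq table of GRCm38.p6.

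The groups share replicate numbers. Deviations from the group means, over 10123 probes detected on at least 3 arrays, correlated between arrays of equal number by 0.519 to 0.736 for LPS plus hBD3 and LPS, 0.244 to 0.63 for LPS plus hBD3 and untreated, 0.454 to 0.705 for hBD3 and untreated, 0.4 to 0.747 for LPS plus hBD3 and hBD3, and 0.0799 to 0.431 for LPS and untreated. The numbers were therefore taken as pairs, on the data alone. The last comparison falls short at 1 number, but its groups are each paired with LPS plus hBD3, so its blocked values are given beside the others. Alternatives were neqc background correction (offset 16), median scaling, quantile normalization of log2 values, the authors' value table, detected probes only, the block, compared groups only, array weights, trended and robust variances, 1 probe per gene, and leaving out arrays. The fit was tested on simulated data first.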

Additional observations from a re-analysis of the deposited data

Results flagged for a closer look

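The difference in Egr1 with hBD3 was flagged because it was below 0 at each replicate number with LPS (-2.57, -2.62 and -2.44) and above 0 at each number without LPS (0.01, 0.62 and 0.64). An effect without LPS was not shown (log FC 0.42, 95% interval -0.61 to 1.45, adjusted p = 1 by limma), and 0.01 is close to 0. The interaction term was -2.96, with an adjusted p of 1 by limma and of 0.00156 with the replicate block. No explanation of this difference was tested, and how many of all probes share these signs was not counted.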

How the results depend on the processing

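Egr1 kept its direction in every comparison under every alternative run. For LPS plus hBD3 against LPS (-2.54, adjusted p = 0.246 by limma) it passed under median scaling (-2.93, adjusted p = 0.0224), array weights (-2.85, adjusted p = 0.0393), without LPS replicate 1 (-2.97, adjusted p = 0.037) and without all replicate 1 arrays (-2.53). Without any single array it was -2.97 to -2.11. For LPS against untreated BMDM it missed the threshold in a fit of these groups only (4.34, adjusted p = 0.058). Its interaction passed without the replicate 1 arrays (-3.16), and was -3.39 to -2.53 without single arrays.

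With the replicate block Egr1 passed for LPS plus hBD3 against LPS (-2.54), for LPS plus hBD3 against untreated BMDM (1.80) and for the interaction (-2.96). For LPS against untreated BMDM, where equal-numbered arrays deviated together least, Egr2 passed with the block (1.14, adjusted p = 0.00588) and 72 probes did, against 27. The block changed no other call of Egr1 or Egr2, and under it 42 probes were called for LPS plus hBD3 against LPS, 2 for LPS plus hBD3 against untreated BMDM and 20 for the interaction.

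Egr2 turned in sign under median scaling for LPS plus hBD3 against hBD3 (-0.18) and against untreated BMDM (-0.02). Without single arrays it was -0.37 to 0.77 for hBD3 against untreated BMDM (below 0 without untreated replicate 1, hBD3 replicate 2 or hBD3 replicate 3), -0.49 to 0.85 for LPS plus hBD3 against hBD3 (below 0 without hBD3 replicate 1 or LPS plus hBD3 replicate 2 or 3) and -0.23 to 0.99 for LPS plus hBD3 against untreated BMDM (below 0 without untreated replicate 1 or LPS plus hBD3 replicate 2). Without the replicate 1 arrays, on which it read lowest, it passed for LPS plus hBD3 against LPS (-0.95) and LPS against untreated BMDM (1.43). These calls rest on replicates 2 and 3 alone and are no separate support. Without single arrays the 2 values were -1.66 to -0.16 and 0.63 to 1.94.

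For LPS plus hBD3 against LPS 14 probes were called, against 9 with neqc, 0 in a fit of these groups only, 55 without the replicate 1 arrays and 9 to 29 without single arrays (29 without LPS replicate 1, and 9 without replicate 3 of either group). For LPS against untreated BMDM the 27 became 6 in a fit of these groups only, 44 with array weights, 81 without the replicate 1 arrays and 19 to 44 without single arrays (44 without LPS replicate 1). For the interaction 0 became 5 under median scaling, 7 among detected probes, 12 with array weights, 8 with trended and robust variances, 4 with 1 probe per gene, 26 without the replicate 1 arrays and 0 to 17 without single arrays (17 without LPS replicate 1, and 1 without LPS plus hBD3 replicate 3). Where these counts moved, the cause was not tested. None of 12 other named genes turned in sign with LPS under these alternatives. In fits of the compared groups only, of those called with LPS, Ier3, Ppp1r15a and Socs3 kept the call for LPS against untreated BMDM. For LPS plus hBD3 against LPS such a fit called no probe, so the falls of Ier3 and Ppp1r15a were not called there. Egr3, at background on 11 arrays, was not recomputed, and signal over background limits any statement on it.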
